A study of Mus musculus with 9 samples.

Results

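The 10 genes described here shape an immunosuppressive environment through metabolism and were followed in splenic dendritic cells (DCs) of healthy and leukemic mice. They are the tryptophan and aromatic amino acid enzymes Ido1, Ido2 and Il4i1, the arginine enzymes Arg1, Arg2 and Nos2, the ectonucleotidases Entpd1 and Nt5e, and the adenosine receptors Adora2a and Adora2b. The members were taken by gene symbol, and all 10 were among the 54532 genes of the expression table. Bulk RNA-seq was available for 9 samples in 3 groups of 3. N-mDCs were mature conventional DCs (cDCs) from the spleens of healthy, untreated mice, T-mDCs were the mature cDCs from spleens with T-cell acute lymphoblastic leukemia (T-ALL), and T-DCs were the CD11c+MHCIIlo cells of leukemic spleens, labelled immature DCs. The leukemia was driven by a retrovirus carrying the intracellular domain of Notch1 together with GFP, and GFP+ leukemia cells had been transferred to non-irradiated C57BL/6J or C57B6.SJL mice. The study used female mice of 6 to 8 weeks, and the cells were sorted on day 15. The sort followed red cell lysis and CD11c bead enrichment. MHCII protein was itself a sorting criterion. The labels do not say whether the samples of a group came from separate mice, so the p-values below measure the spread between samples, which may be technical in part.

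These genes act in a few well-known routes. Ido1 and Ido2 open the tryptophan ring and start the kynurenine route, which uses up the tryptophan that T cells need and yields products that bind the aryl hydrocarbon receptor. Arg1 and Arg2 split arginine into ornithine and urea, while Nos2 turns the same substrate into nitric oxide. Entpd1 (CD39) and Nt5e (CD73) act one after the other on the cell surface, from ATP to AMP and from AMP to adenosine, and adenosine raises cyclic AMP through the receptors Adora2a and Adora2b. In DCs, Ido1 is best known from mature and cDC1 cells, and adenosine receptors are known for curbing the stimulation of T cells.

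The stretches that mark Ido1, Ido2, Arg1 and Nos2 are the primers with which the study measured them by qRT-PCR, and they show where in each transcript that assay reads. All are written 5′ to 3′ in lower case, without capitals since no part is singled out, and each matched a transcript of its gene in GENCODE M21 (GRCm38), the reverse primers on the antisense strand.
Ido1 forward, exon 1, chr8:24596850-24596869: atgtgggctttgctctacca
Ido1 reverse, exon 2, chr8:24593351-24593370: aagctgcccgttctcaatca
Ido2 forward, exon 4, chr8:24550794-24550814: actctgacctggtgctgacaa
Ido2 reverse, exon 7, chr8:24546582-24546602: cctgactgtgttgccgaatgg
Arg1 forward, exon 1, chr10:24927323-24927342: gattatcggagcgcctttct
Arg1 reverse, exon 3, chr10:24920642-24920663: ccacactgactcttccattctt
Nos2 forward, exon 20, chr11:78949979-78949998: tcaccttcgagggcagccga
Nos2 reverse, exon 21, chr11:78951202-78951221: tccgtggcaaagcgagccag
Each pair lies in different exons, and the products span 107 bases for Ido1, 204 for Ido2, 260 for Arg1 and 286 for Nos2 of the spliced transcript. The RNA-seq values below are scaled by the length of all exons of a gene, so they are not limited to these products, although the counting rule is not given.

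The libraries differed in composition. Reads on genes ranged from 15360815 to 18440913 per sample, and FPKM is the number of reads per kilobase of exon, scaled by a library size that the authors set. The 6 conventional DC markers summed to between 578 and 2180 FPKM in T-DCs, compared with 15820 to 23030 in N-mDCs and 10570 to 14940 in T-mDCs, so the defining transcripts were low in the T-DC libraries, although none was at 0. Most of these sums came from Cd74, H2-Aa and H2-Ab1 of the MHCII pathway, which the sort bears on directly. Outside it Flt3 and Zbtb46 were lower in T-DCs as well, at 4.48 to 15.4 and 1.84 to 3.42 FPKM against 44.4 to 89.1 and 10.7 to 23.5 FPKM in the mature samples, while Itgax (CD11c) did not pass, at 43.0 to 151.6 against 158.4 to 230.2 FPKM (limma adjusted p = 0.0926 and 0.149 for the respective T-DC contrasts with N-mDCs and T-mDCs). The summed level of 8 erythroid markers was 603 FPKM in T-DC sample 1 but 57940 and 41950 FPKM in T-DC samples 2 and 3, against 14.5 to 5359 FPKM elsewhere. The 8 macrophage markers summed to 3247 FPKM in T-DC sample 1 and to 1328 and 816 FPKM in T-DC samples 2 and 3. In N-mDCs they summed to 1598, 3407 and 1884 FPKM, and in T-mDCs to 1417, 545 and 541 FPKM. T-mDC samples 2 and 3 were unusually alike, with a chi-square per gene of 1.80 against 5.45 to 19.0 for other pairs within a group, and remained separate samples. In bulk samples, fewer cells of a type and less RNA per cell cannot be told apart.

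Adora2a and Ido1 were the members that differed among the groups. Both were highest in T-mDCs and lowest in T-DCs, with N-mDCs between them. The test covered 12746 genes that reached 1 FPKM in 3 or more samples, on log2(FPKM + 1) in limma, with an adjusted p (Benjamini-Hochberg over these genes) under 0.05 as the threshold. Of the 10 members, 4 passed that filter (Ido1, Entpd1, Adora2a and Adora2b), and 2 of the 4 differed among the 3 groups, where 18.0% of all tested genes did. For T-DCs against T-mDCs, 2 members were called, both lower, against 14.2% of all tested genes called (8.79% lower and 5.44% higher). For T-DCs against N-mDCs, 1 member was called, lower, against 16.4% of all tested genes called (10.3% lower and 6.10% higher). For T-mDCs against N-mDCs no member was called by limma, where 2.21% of all tested genes were (0.690% higher and 1.52% lower). In this last comparison 3 of the 4 members had an unadjusted p under 0.05, as did 16.7% of all tested genes. The 3 comparisons share samples in pairs, so they are not independent of each other.

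**Figure D1:**
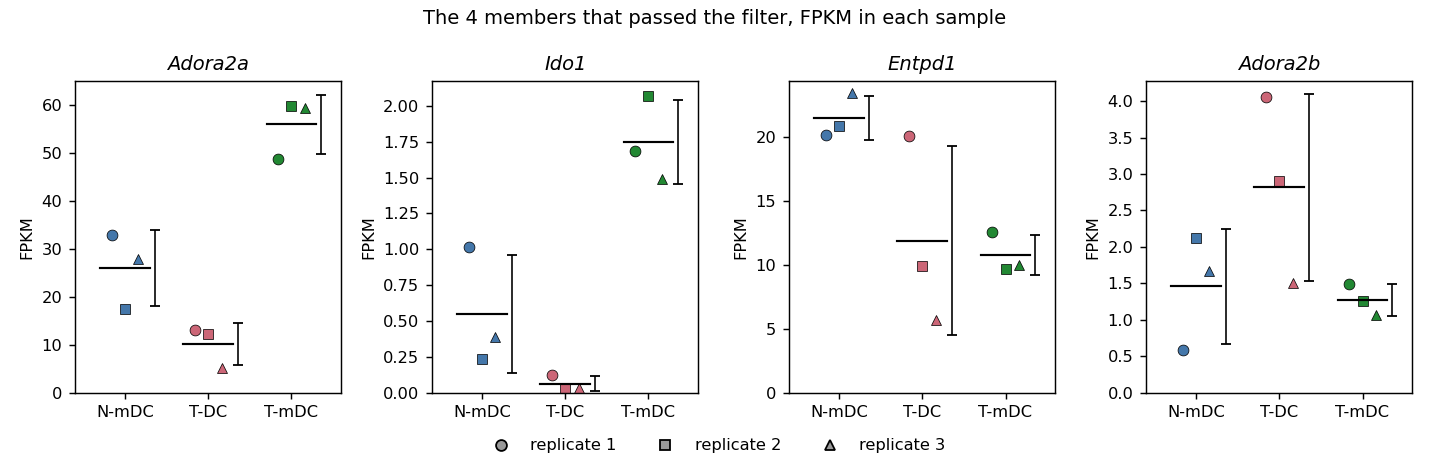
FPKM of Adora2a, Ido1, Entpd1 and Adora2b (y axis, a separate linear scale for each gene, from 0) in the N-mDC, T-DC and T-mDC samples; marker shapes are replicates, the horizontal line is the group mean and the bar is ± SD (n = 3). Adora2a and Ido1 stood apart in all 3 groups, and T-DC sample 1 lay with the N-mDCs for Entpd1.

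Adora2a (ENSMUSG00000020178, chr10:75316877-75334784, GRCm38, plus strand), the high-affinity receptor through which adenosine quiets immune cells, had the highest mean per length of the members in N-mDCs and T-mDCs, while Entpd1 did in T-DCs. It measured 32.8, 17.4 and 27.9 FPKM in N-mDCs. It measured 13.2, 12.3 and 5.12 FPKM in T-DCs. It measured 48.8, 59.7 and 59.3 FPKM in T-mDCs. Every T-DC sample lay below every N-mDC sample, and every T-mDC sample lay above both. The group means were 26.1 ± 7.87, 10.2 ± 4.43 and 55.9 ± 6.20 FPKM (SD, n = 3). T-DCs were lower than T-mDCs by a log2 fold change of -2.43 (SE 0.35, limma adjusted p = 0.00397), a 5.48-fold difference of the mean FPKM. This call held without any single library, with log2 fold changes from -2.65 to -2.04. T-DCs were lower than N-mDCs by a log2 fold change of -1.32 (SE 0.35, limma adjusted p = 0.0367). That second call was less firm: it was lost when any library except N-mDC sample 2 or T-DC sample 1 was left out, with a highest adjusted p of 0.124, and adjusted p ranged from 1.7e-04 to 0.290 over all alternatives. T-mDCs exceeded N-mDCs by 1.11 on the log2 scale, but the adjusted p was 0.160. In a fit of these 2 groups alone that adjusted p was 0.0486. T-DC sample 1, with an erythroid sum of 603 FPKM, measured 13.2 FPKM for Adora2a and was also below all samples of both other groups. The erythroid sums were 99.4, 5359 and 485 FPKM in N-mDCs and 14.5 to 179 FPKM in T-mDCs. The part of red cell RNA in the Adora2a values was not tested.

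Ido1 (ENSMUSG00000031551, chr8:24584136-24597009, minus strand), the first enzyme of the kynurenine route, was a low transcript in all 9 samples. It measured 1.02, 0.238 and 0.392 FPKM in N-mDCs, from 29, 7 and 13 reads. It measured 0.122, 0.0354 and 0.0361 FPKM in T-DCs, from 4, 1 and 1 reads. It measured 1.68, 2.07 and 1.49 FPKM in T-mDCs, from 58, 73 and 50 reads. The 3 groups did not overlap, and N-mDC sample 1 was the healthy sample nearest to the leukemic mature cells. T-DCs were lower than T-mDCs by a log2 fold change of -1.36 (SE 0.21, limma adjusted p = 0.00499), and the call held without any single library. Ido1 reached 1 FPKM only in the T-mDCs and in N-mDC sample 1, so it entered the test through samples where it was high; with no filter it was called as well. On summed reads the level in T-mDCs was 25.9 times that in T-DCs, with an interval of 11.7 to 71.5 that covers counting error only (exact, 95%). The difference between T-DCs and N-mDCs was -0.51 (SE 0.21, limma adjusted p = 0.123). On whole reads with limma voom, which weights each value by its count, the same difference was -2.69 with an adjusted p of 0.0407. T-mDCs exceeded N-mDCs by 0.85 (adjusted p = 0.0848), and without N-mDC sample 1 by 1.06 (adjusted p = 0.0493).

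Both calls against T-mDCs were lost when the mean log2 level of the erythroid markers entered the fit as a covariate. Adora2a then had a log2 fold change of -1.51 with an adjusted p of 0.275, and Ido1 had -0.99 with an adjusted p of 0.285. In that fit 0 of the 12746 genes passed the threshold for T-DCs against T-mDCs, and 1705 had an unadjusted p under 0.05. The erythroid sums of T-DCs and T-mDCs did not overlap, so that covariate and the group cannot be told apart here.

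Ido2 (ENSMUSG00000031549, chr8:24531892-24576333, minus strand), the paralog of Ido1, is its neighbour, with 7802 bases between the genes. It failed the filter, with 0.379, 0.228 and 0.508 FPKM in T-mDCs, from 26, 16 and 34 reads. N-mDCs had 6, 0 and 1 reads. T-DCs had 1, 0 and 1 reads. As with Ido1, all T-mDC samples lay above all other samples, whereas N-mDCs and T-DCs overlapped. Summed reads gave a T-mDC level 32.6 times that of T-DCs (interval 8.73 to 274.3, counting error only) and 9.57 times that of N-mDCs (4.43 to 24.6). With limma voom on whole reads and no filter, an alternative chosen after seeing the data, the log2 fold change of T-DCs against T-mDCs was -4.37 (SE 0.76, adjusted p = 0.00674), where 5.27% of the 28859 genes were called lower. On log2(FPKM + 1) with no filter it was -0.43 (adjusted p = 0.0207), since a pseudocount of 1 compresses values this low. The T-mDC excess over N-mDCs did not pass in either fit (adjusted p = 0.0711 and 0.0638).

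Il4i1 (ENSMUSG00000074141, chr7:44816387-44840809, plus strand), a secreted oxidase of aromatic amino acids, was close to 0 in all samples. It had 3, 1 and 3 reads in N-mDCs. It had 5, 0 and 0 reads in T-DCs. It had 1, 3 and 2 reads in T-mDCs. The groups overlapped in all 3 comparisons, and no difference was detectable at this depth. This value has a limit from the annotation: 3520 of the 4080 exonic bases of Il4i1, or 86.3%, are also exonic in other genes. Tbc1d17, on the opposite strand, shares 3423 of them and had means of 7.34 ± 0.967 FPKM in N-mDCs, 5.75 ± 1.46 in T-DCs and 6.46 ± 0.0694 in T-mDCs (SD, n = 3). Nup62 on the same strand shares 97 and Atf5 on the opposite strand 82. How reads in shared exons were assigned and whether strand was used is not given in the sources used here, so the reads of Il4i1 may stand for its 560 unshared bases only.

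**Figure D2:**
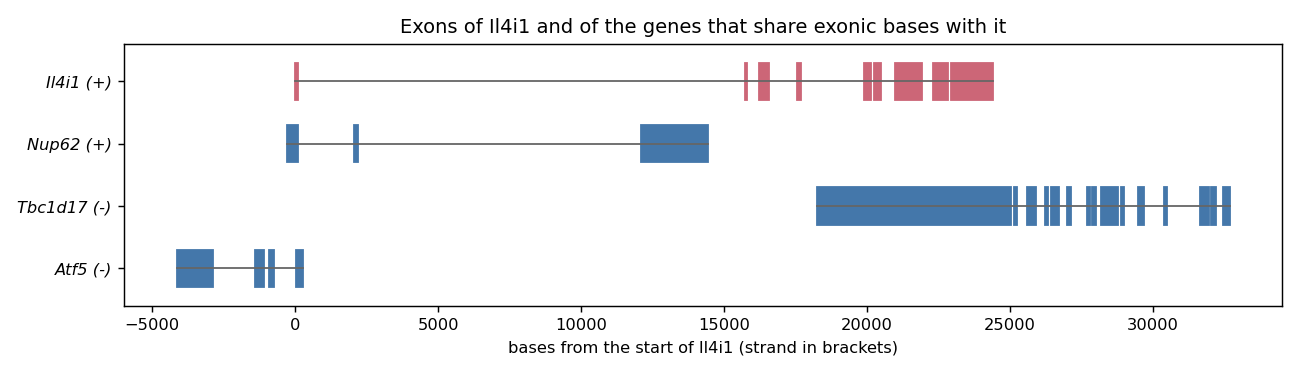
Exons (boxes) of Il4i1 and of the 3 genes that share exonic bases with it, in bases from the start of Il4i1 (x axis, to scale), with the strand of each gene in brackets. The 3′ exons of Il4i1 lie inside exons of Tbc1d17 on the opposite strand, which hold 83.9% of its exonic bases.

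**Figure D3:**
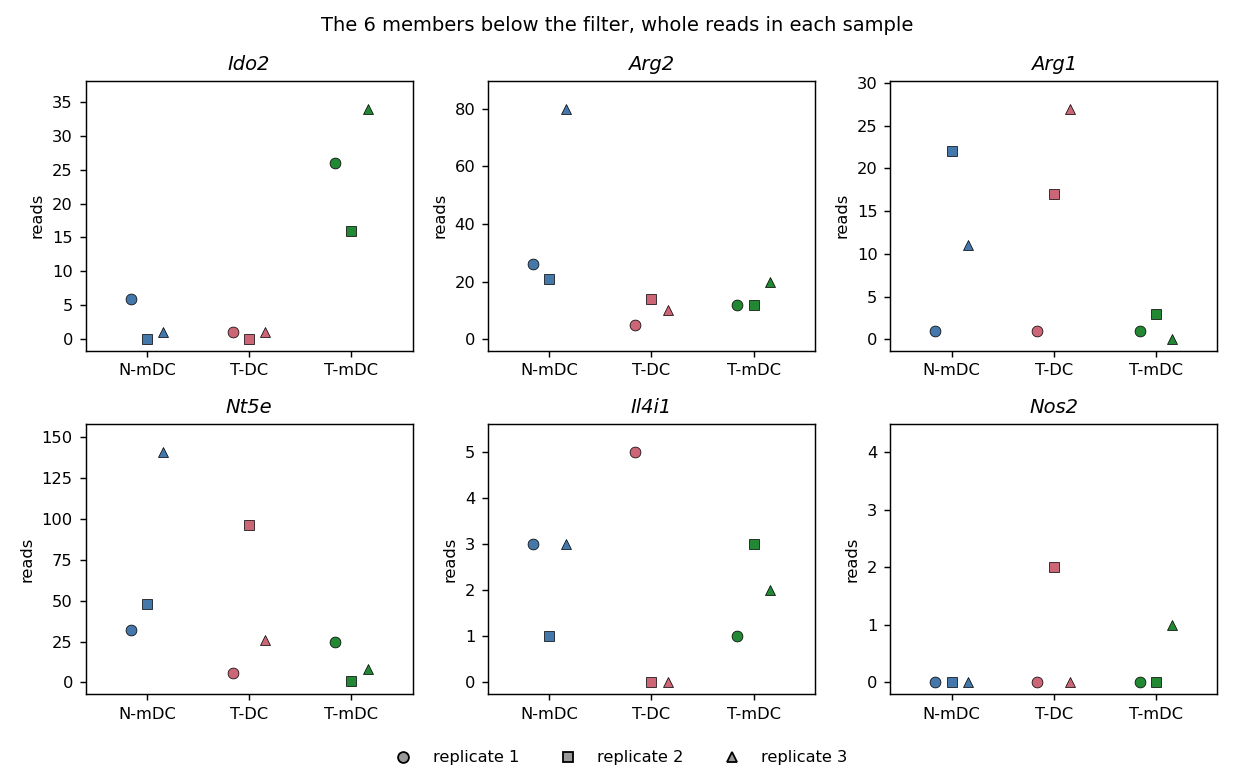
Whole reads (y axis, a separate linear scale for each gene) of the 6 members below the filter in each N-mDC, T-DC and T-mDC sample; marker shapes are replicates. Ido2 was high in the T-mDCs alone, Arg2 was highest in N-mDCs, and Nos2 had 0 to 2 reads.

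None of the arginine enzymes passed the filter, and their groups rested on few reads. Arg2 (ENSMUSG00000021125, chr12:79130777-79156301, plus strand), the mitochondrial arginase, was the highest of them. It measured 1.16, 0.913 and 3.09 FPKM in N-mDCs, from 26, 21 and 80 reads. It measured 0.195, 0.633 and 0.461 FPKM in T-DCs, from 5, 14 and 10 reads. It measured 0.445, 0.435 and 0.762 FPKM in T-mDCs, from 12, 12 and 20 reads. All N-mDC samples lay above all samples from leukemic spleens, and the leukemic groups overlapped. With voom and no filter the difference of T-DCs from N-mDCs was -1.95 (SE 0.64) and did not pass (adjusted p = 0.0955). The same holds for T-mDCs against N-mDCs, at -1.5 (adjusted p = 0.305). Of the 1428 exonic bases of Arg2, 401 (28.1%) are shared with Vti1b and Gm48780 on the opposite strand.

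Arg1 (ENSMUSG00000019987, chr10:24915221-24927484, minus strand), the cytosolic arginase that marks alternatively activated macrophages and also occurs in granulocytes, varied more within groups than between them. It measured 0.0287, 0.613 and 0.272 FPKM in N-mDCs, from 1, 22 and 11 reads. It measured 0.0251, 0.492 and 0.798 FPKM in T-DCs, from 1, 17 and 27 reads. It measured 0.0238, 0.0697 and 0 FPKM in T-mDCs, from 1, 3 and 0 reads. Samples 2 and 3 of N-mDCs and T-DCs were high, and all other samples were low, so every pair of groups overlapped. The difference between T-DCs and T-mDCs did not pass with voom and no filter (2.87, SE 1.38, adjusted p = 0.260). The 9 neutrophil markers summed to 413 and 717 FPKM in N-mDC samples 2 and 3 and to 3492 and 1226 FPKM in T-DC samples 2 and 3. They summed to 82.7 FPKM in N-mDC sample 1, to 42.2 FPKM in T-DC sample 1 and to 19.0 to 21.0 FPKM in T-mDCs, where the defining markers Ly6g and Elane were at 0 in 2 of the 3 samples. Between samples 2 and 3 the neutrophil sum ran opposite to Arg1 in both N-mDCs and T-DCs. Other marker sums were likewise higher in samples 2 and 3 of both groups than in sample 1. These were the erythroid, B lineage, NK cell, monocyte, and eosinophil and basophil or mast cell sums. The part of any of these cells in the Arg1 values was not tested.

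Nos2 (ENSMUSG00000020826, chr11:78920787-78960254, plus strand), the inducible nitric oxide synthase, had 3 reads in the whole series. All N-mDC samples were at 0, T-DC sample 2 had 2 reads and T-mDC sample 3 had 1 read. A group without reads allows a level of up to 0.0136 FPKM in N-mDCs, at 3 reads over the group. No difference was detectable at this depth. The exonic bases of Nos2 and Arg1 are shared with no other annotated gene.

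Among the ectonucleotidases, Entpd1 (ENSMUSG00000048120, chr19:40612366-40741602, plus strand), which removes phosphates from ATP and ADP, was well expressed. It measured 20.2, 20.9 and 23.5 FPKM in N-mDCs. It measured 20.1, 9.91 and 5.74 FPKM in T-DCs. It measured 12.6, 9.70 and 10.03 FPKM in T-mDCs. All samples from leukemic spleens lay below the N-mDCs, T-DC sample 1 by a narrow margin, and the leukemic groups overlapped. The log2 fold change was -0.96 for T-DCs against N-mDCs (SE 0.36, limma adjusted p = 0.0990) and -0.94 for T-mDCs against N-mDCs (SE 0.36, adjusted p = 0.238), so neither difference passed. In the fit of all 9 samples T-DC sample 1 decided both. Without it the log2 fold change was -1.39 for T-DCs against N-mDCs (adjusted p = 0.00222) and stayed at -0.94 for T-mDCs against N-mDCs (adjusted p = 0.0330). Leaving out that library raised the calls over all genes as well, to 4968 of 12587 for T-DCs against N-mDCs and to 1021 for T-mDCs against N-mDCs. A fit of T-mDCs and N-mDCs alone, in which 850 of 12746 genes were called, gave Entpd1 a limma adjusted p of 0.0219. The T-DC samples ranked for Entpd1 as they did for 6 of the 14 marker sums, those of conventional DCs, migratory DCs, cDC1, cDC2, macrophages and red pulp macrophages. None of these 6 sums ranked the N-mDC samples as Entpd1 did and only the red pulp macrophage sum so ranked the T-mDC samples, and the part of such cells in the Entpd1 values was not tested. Between T-DCs and T-mDCs the difference was -0.02, with an interval of -0.84 to 0.81.

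Nt5e (ENSMUSG00000032420, chr9:88327197-88372092, plus strand), which makes adenosine from AMP, was far below Entpd1 per length in every sample. It measured 0.238, 0.347 and 0.903 FPKM in N-mDCs, from 32, 48 and 141 reads. It measured 0.0389, 0.720 and 0.199 FPKM in T-DCs, from 6, 96 and 26 reads. It measured 0.154, 0.00602 and 0.0506 FPKM in T-mDCs, from 25, 1 and 8 reads. All T-mDC samples lay below all N-mDC samples, while T-DCs spanned nearly the whole range. The difference of T-mDCs from N-mDCs was -3.37 with voom and no filter (SE 1.2, adjusted p = 0.239). Within T-DCs the order of the samples was that of 6 of the 14 marker sums (B lineage, NK cell, erythroid, neutrophil, monocyte, and eosinophil and basophil or mast cell). Of these the B lineage and monocyte sums kept the order of Nt5e within T-mDCs, where samples 2 and 3 hardly differed in either sum, and the monocyte, neutrophil and NK cell sums did within N-mDCs. The part of these cells in the Nt5e values was not tested.

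Adora2b (ENSMUSG00000018500, chr11:62248984-62266453, plus strand), the low-affinity adenosine receptor, went the other way from Adora2a in its means. It measured 0.589, 2.12 and 1.67 FPKM in N-mDCs, from 17, 63 and 56 reads. It measured 4.05, 2.9 and 1.5 FPKM in T-DCs, from 134, 83 and 42 reads. It measured 1.49, 1.26 and 1.06 FPKM in T-mDCs, from 52, 45 and 36 reads. T-DCs lay above T-mDCs, by a narrow margin for T-DC sample 3, and overlapped with N-mDCs. Neither difference passed: the log2 fold change was 0.69 against T-mDCs (SE 0.32, interval -0.03 to 1.42, limma adjusted p = 0.184) and 0.63 against N-mDCs (SE 0.32, interval -0.09 to 1.36, adjusted p = 0.189). T-mDCs and N-mDCs differed by -0.06, with an interval of -0.79 to 0.66. The mean FPKM of Adora2a was above that of Adora2b in all 3 groups.

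**Figure D4:**
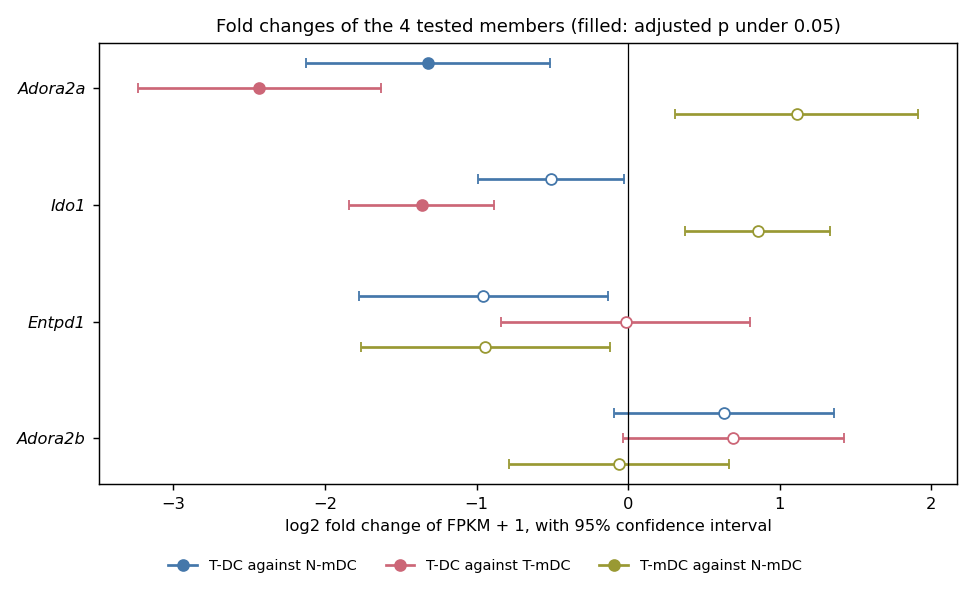
Log2 fold change on FPKM + 1 (x axis) of the 4 tested members in the 3 comparisons, with 95% confidence intervals that are not adjusted for the number of genes; filled points passed the adjusted p threshold of 0.05. Adora2a passed in both T-DC comparisons and Ido1 against T-mDCs, while the intervals of Adora2b all included 0.

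By level per length, Adora2a exceeded Entpd1 in T-mDCs without overlap, whereas their values overlapped in N-mDCs and T-DCs. Below them came Adora2b, Ido1 and Arg2, which ranged from 0.0354 to 4.05 FPKM and changed order between groups. Ido2, Arg1 and Nt5e stayed under 1 FPKM in all 9 samples, and Il4i1 and Nos2 stayed under 0.1 FPKM. Samples without overlap were frequent among all tested genes, at 32.4% for T-DCs against N-mDCs, 34.9% for T-DCs against T-mDCs and 35.0% for T-mDCs against N-mDCs. Among the 4 tested members the groups stood apart for 3 genes in each of these comparisons.

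The genes whose profile over the 9 samples was most like a member's were found by the root mean square difference of centred log2(FPKM + 1) values among 12745 other genes. For Adora2a these were the zinc transporter Slc30a4 (0.21) and Sh3bp4 (0.23), where the median over all genes was 1.14. Slc30a4 averaged 4.19 ± 1.71 FPKM for N-mDCs, 0.998 ± 0.584 for T-DCs and 7.92 ± 1.62 for T-mDCs (SD, n = 3). For Ido1 they were Esyt3 (0.12) and Gm46212 (0.13), which like Ido1 averaged under 2 FPKM in every group. For Entpd1 they were the kinase gene Plk2 (0.14) and Zswim4 (0.17). For Adora2b they were the sulfotransferase gene Chst12 (0.16) and the glycosyltransferase gene Mgat1 (0.18). This is a description of profiles across samples that share depth and composition.

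Kmo and Kynu, enzymes that follow Ido1 in the kynurenine route, and Ahr, the receptor of its products, had lower levels in T-DCs than in both mature groups. Of 22 genes listed for this route and the aryl hydrocarbon receptor, 13 were tested. Against N-mDCs 5 were lower and 1 higher (all tested genes: 10.3% and 6.10%), and relative to T-mDCs 3 were lower and 1 higher (8.79% and 5.44%). No gene of the list was called for T-mDCs against N-mDCs. Kmo, which hydroxylates kynurenine, measured 9.22, 4.89 and 3.15 FPKM in T-DCs, 28.7 to 39.7 FPKM in N-mDCs and 33.3 to 47.6 FPKM in T-mDCs. Its log2 fold change was -2.39 against N-mDCs (SE 0.33, limma adjusted p = 0.00284) and -2.76 against T-mDCs (adjusted p = 0.00197). Kynu, which cleaves kynurenine, fell by 2.28 and 2.32 (limma adjusted p = 0.00454 and 0.00455). Ahr, the receptor itself, measured 3.29, 2.85 and 1.23 FPKM in T-DCs against 26.5 to 59.6 FPKM in N-mDCs and 15.9 to 35.9 FPKM in T-mDCs. Its log2 fold changes were -3.81 and -3.07 (adjusted p = 0.00151 and 0.00361). These calls of Kmo, Kynu and Ahr held without any single library. The other genes called lower against N-mDCs, named after their values were seen, were Haao, which acts further down, and Tiparp, a target of the receptor. Haao fell by 1.34 (limma adjusted p = 0.0282, and up to 0.0912 with a library left out, lost in 7 of 9 such fits). Tiparp fell by 1.5 (adjusted p = 0.0209, and up to 0.0742 when N-mDC sample 3 or T-DC sample 2 was dropped).

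Nqo1, a quinone reductase that is a known Ahr and Nrf2 target, was the gene of this list that was called higher. It measured 3.67, 24.4 and 21.8 FPKM in T-DCs, 0.200 to 0.603 FPKM in N-mDCs and 0.105 to 1.33 FPKM in T-mDCs. Nqo1 reached 1 FPKM only in the T-DCs and in T-mDC sample 1, so it entered the test through samples where it was high. With no filter it was called as well. The log2 fold change was 3.32 against N-mDCs (SE 0.61, limma adjusted p = 0.00914) and 3.26 against T-mDCs (adjusted p = 0.0107, and up to 0.0586 without T-mDC sample 2 or 3). Its 3 T-DC samples followed the erythroid sums of 603, 57940 and 41950 FPKM in order, as they did 5 other marker sums, and the part of red cell RNA was not tested. The median log2 fold change over the 13 genes was 0.14 with N-mDCs and 0.33 with T-mDCs as the reference, beside 0.05 and 0.07 over all tested genes.

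Of 22 genes for the transport and recycling of arginine, the polyamines and the cofactor of nitric oxide synthase, 18 were tested. Against N-mDCs 1 was lower and 1 higher (all tested genes: 10.3% and 6.10%), and the same counts were found against T-mDCs (8.79% and 5.44%). Ass1, which rebuilds arginine from citrulline by way of argininosuccinate, measured 6.08, 7.06 and 6.0 FPKM in T-DCs against 27.2 to 31.7 FPKM in N-mDCs and 28.0 to 37.8 FPKM in T-mDCs. It fell by 2.06 against N-mDCs (SE 0.17, limma adjusted p = 5.4e-04) and by 2.16 against T-mDCs (adjusted p = 9.6e-04), without overlap and in all libraries alike. Gatm, which uses arginine for creatine synthesis, was higher in both leukemic groups. It measured 22.5 to 33.2 FPKM in T-DCs and 27.0 to 28.2 FPKM in T-mDCs, above the 9.62 to 13.2 FPKM of N-mDCs. It was called for T-DCs against N-mDCs (1.23, SE 0.19, limma adjusted p = 0.00511) and, as the only gene of the 5 lists, for T-mDCs against N-mDCs (1.28, SE 0.19, adjusted p = 0.0180). That last call was lost when N-mDC sample 2 or 3 or T-mDC sample 2 or 3 was dropped, with an adjusted p of up to 0.113. Gch1, which makes the cofactor tetrahydrobiopterin, measured 6.15, 37.2 and 20.3 FPKM in T-DCs and 2.65 to 2.88 FPKM in T-mDCs (2.25, SE 0.52, limma adjusted p = 0.0247). Within T-DCs it ranked as 6 of the 14 marker sums did (monocyte, neutrophil, B lineage, NK cell, erythroid, and eosinophil and basophil or mast cell). Of these, the monocyte, neutrophil and NK cell sums also ranked the N-mDCs as Gch1 did, and none so ranked the T-mDCs. The part of such cells was not tested. Gch1 lost the call in 5 of 9 fits that left out a library, with an adjusted p of up to 0.0964. The lost calls came without T-DC sample 2 or 3 or without any of the T-mDC samples.

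**Figure D5:**
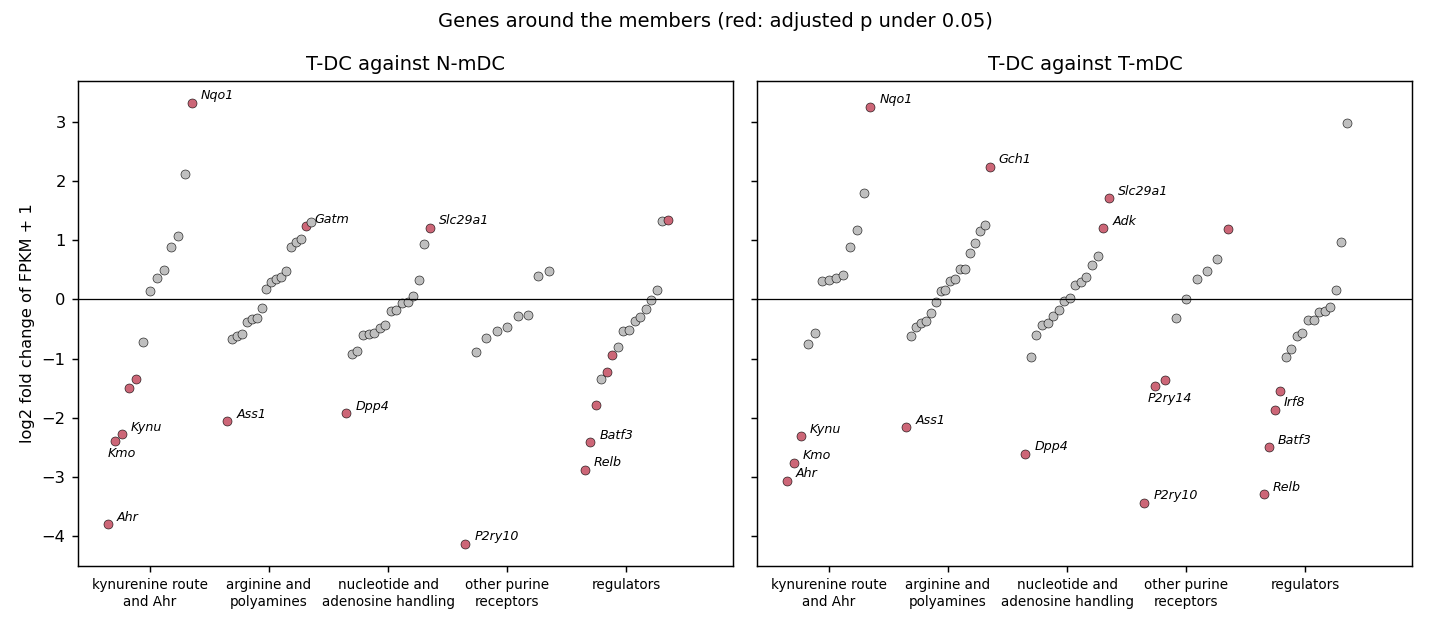
Log2 fold change on FPKM + 1 (y axis) of the tested genes in 5 lists around the members (x axis), for T-DCs against N-mDCs and against T-mDCs; red points passed the adjusted p threshold of 0.05. Ahr, Kmo, Kynu, Ass1, Dpp4, P2ry10, Relb, Batf3 and, without a name beside its point, Nfkb2 were lower in both comparisons, and Nqo1 and Slc29a1 were higher in both.

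Around the adenosine members, 16 of 24 listed genes for the handling of extracellular nucleotides and adenosine were tested. Against N-mDCs 1 was lower and 1 higher (all tested genes: 10.3% and 6.10%), and against T-mDCs 1 was lower and 2 were higher (8.79% and 5.44%). Dpp4 (CD26), a surface peptidase known in humans as an anchor of adenosine deaminase, measured 16.4, 10.2 and 6.63 FPKM in T-DCs against 29.4 to 60.6 FPKM in N-mDCs and 52.7 to 80.2 FPKM in T-mDCs. It fell by 1.92 against N-mDCs and by 2.62 against T-mDCs (limma adjusted p = 0.00993 and 0.00341), and both calls held without any single library. Slc29a1, the carrier that moves adenosine across the membrane, measured 37.3, 42.0 and 57.9 FPKM in T-DCs against 16.1 to 24.6 FPKM in N-mDCs and 11.3 to 16.9 FPKM in T-mDCs. It rose by 1.71 against T-mDCs (SE 0.25, limma adjusted p = 0.00422) and by 1.21 against N-mDCs (adjusted p = 0.0154, and up to 0.0626 without N-mDC sample 1 or 3). The T-DC sample with the low erythroid sum, sample 1, was also above all samples of both other groups. Adk, which phosphorylates adenosine inside the cell, was higher in T-DCs than in T-mDCs (1.2, SE 0.28, limma adjusted p = 0.0260), but the adjusted p reached 0.113 in fits that left out T-DC sample 2 or 3 or T-mDC sample 2 or 3.

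Of 12 further purine receptors, 9 were tested. The calls were 1 lower and 0 higher against N-mDCs (all tested genes: 10.3% and 6.10%). They were 3 lower and 1 higher against T-mDCs (8.79% and 5.44%). P2ry10, placed in this family by sequence although its known ligands are lysophospholipids, measured 8.95, 12.3 and 2.89 FPKM in T-DCs against 86.5 to 178.3 FPKM in N-mDCs and 61.7 to 102.9 FPKM in T-mDCs. It fell by 4.13 against N-mDCs and by 3.44 against T-mDCs (limma adjusted p = 0.00161 and 0.00361), in all fits that left out a library. P2ry14, a receptor of UDP sugars, was lower against T-mDCs by 1.46 (adjusted p = 0.0236), with an adjusted p of up to 0.104 without T-DC sample 2 or 3 or T-mDC sample 2 or 3. P2ry6 and P2rx1, named after their values were seen, were the remaining calls, lower by 1.36 and higher by 1.2 (adjusted p = 0.0467 and 0.0139). P2ry6 lost the call in 7 of 9 fits that left out a library (adjusted p up to 0.177), and P2rx1 without T-DC sample 2 or T-mDC sample 2 or 3 (up to 0.0672). P2rx1 reached 1 FPKM only in the T-DCs and in N-mDC sample 3, so it entered the test through samples where it was high.

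Among transcription factors and cytokine signalling genes that are textbook regulators of the members, Relb and Batf3 were lower in T-DCs than in both mature groups. All 16 listed genes were tested. Against N-mDCs 5 were lower and 1 higher (all tested genes: 10.3% and 6.10%), and against T-mDCs 4 were lower and 0 higher (8.79% and 5.44%), so calls were more often lower over all genes as well. Relb, the noncanonical NF-kB subunit known for driving Ido1 in DCs, measured 19.2, 14.5 and 8.43 FPKM in T-DCs against 84.0 to 143.6 FPKM in N-mDCs and 110.3 to 159.3 FPKM in T-mDCs. It fell by 2.88 and 3.29 (SE 0.32, limma adjusted p = 0.00151 and 0.00143), and both calls held without any single library. Batf3, a factor of the cDC1 lineage, fell by 2.42 and 2.5 (adjusted p = 0.0147 and 0.0142), with adjusted p of up to 0.0553 without N-mDC sample 1 or 2 and up to 0.0708 without T-mDC sample 2 or 3. Irf8 was lower against T-mDCs by 1.87 (adjusted p = 0.0194, and up to 0.0910 without T-DC sample 2 or T-mDC sample 2 or 3). Irf1, which carries interferon signals to Ido1 and is named after its values were seen, was lower against N-mDCs by 1.79 (adjusted p = 0.00750), and this call held without any single library. Its difference from T-mDCs was -0.83 and did not pass (limma adjusted p = 0.111). Unlike Ido1, Irf1 was lower in T-mDCs (29.2 to 43.0 FPKM) than in N-mDCs (64.8 to 83.9 FPKM) without overlap. The other noncanonical NF-kB subunit, Nfkb2, also named after its values were seen, was lower by 1.22 against N-mDCs (adjusted p = 0.025, and up to 0.0946 after removal of N-mDC sample 1 or 3 or of T-DC sample 2 or 3) and by 1.54 against T-mDCs (adjusted p = 0.0112, and up to 0.0641 without T-mDC sample 2 or 3). Socs3, a feedback inhibitor of cytokine signalling named on the same basis, was higher against N-mDCs by 1.34 (adjusted p = 0.0436, and up to 0.138 with a library left out, lost in 6 of 9 such fits). The median log2 fold change over the 16 genes was -0.52 with N-mDCs and -0.46 with T-mDCs as the reference, beside 0.05 and 0.07 over all tested genes. The same medians were 0.23 and 0.24 for the arginine list, -0.31 and 0.0031 for the nucleotide list and -0.47 and 0.0013 for the purine receptors. The cDC1 and migratory DC markers, some of which are in this list, moved with these genes: the 7 cDC1 markers summed to 48.1 to 191 FPKM in T-DCs, 312 to 400 in N-mDCs and 404 to 613 in T-mDCs. The 6 migratory DC markers summed to 25.6 to 83.5 FPKM in T-DCs, 1069 to 2326 in N-mDCs and 1182 to 1801 in T-mDCs. These sums ran in the same order over the groups as Adora2a for cDC1 markers, and their part in the values of Adora2a, Ido1 and Ido2 was not tested.

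Except for the purine receptors against T-mDCs, the counts in these lists depended most on T-DC sample 1. Without it each list had its highest count in both T-DC comparisons. For the purine receptors against T-mDCs that count, 4, was also the count of the full fit and of the fit without T-mDC sample 1. It fell to 1 without T-DC sample 2 or T-mDC sample 2 or 3. Calls over all genes rose as well without T-DC sample 1. They went from 2096 of 12746 to 4968 of 12587 against N-mDCs and from 1813 to 4420 against T-mDCs. With 1 library left out at a time, the calls for T-DCs against N-mDCs ranged from 4 to 9 in the kynurenine list, from 2 to 10 in the arginine list, from 1 to 7 in the nucleotide list, from 1 to 5 among the purine receptors and from 3 to 11 among the regulators. For T-DCs against T-mDCs they ranged from 3 to 8, from 1 to 8, from 2 to 5, from 1 to 4 and from 1 to 10.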

How the data were processed

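Spleen DCs were sorted and sequenced by the study (total RNA, Illumina libraries). The authors deposited FPKM per gene for 9 samples, on mm10 per the submitters' processing notes; aligner, counting rule and strand are not given in the sources used here. FPKM times gene length gave whole reads for 100% of values (within 0.001 of a whole number). Reads on genes were 15360815 to 18440913 per sample, which limits members of few reads; intervals on reads cover counting error only. Gene spans matched GENCODE M21.

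Values were analysed as log2(FPKM + 1) for genes of at least 1 FPKM in at least 3 samples. A single limma model held all samples (limma 3.58.1, R 4.3.3, eBayes with trend), with an F-test and 3 contrasts, Benjamini-Hochberg adjustment and a threshold of 0.05. The fit was tested on simulated reads with known changes. These held none of the differences in composition between the libraries, so that test does not bear on them. Alternatives were other pseudocounts, filters, scalings, spreads, voom on whole reads and fits without single samples.

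The members, gene lists and tests were chosen with earlier results of these data known. All members are named; from each list, genes passing the F-test that were among its 4 largest changes; and the 2 most similar genes per tested member. Others are marked in the text. The values of 1 listed gene are not reported here. Same-numbered samples were not treated as pairs, since the labels give no pairing, and 2 of 9 correlations of their deviations exceeded 0.1. The study's single-cell, cytometry and qRT-PCR data were not used here.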

Additional observations from a re-analysis of the deposited data

How the results depend on the processing

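With 2 of 4 members called among the 3 groups, the count was 1 with a filter of 5 FPKM (which Ido1 failed), 3 with no filter, on FPKM or with voom (Ido2 added), 4 with array weights and 0 with the erythroid covariate, and 2 to 3 with a library left out. For T-DCs against T-mDCs (2 members) it was 1 with the 5 FPKM filter, 3 with no filter, on FPKM or with voom (Ido2 added), 3 with array weights (Adora2b added), 0 with the erythroid covariate, and 2 to 2 with a library left out. For T-DCs against N-mDCs (1 member, Adora2a) it was 0 with no filter, with TPM, in a fit of only the groups compared, with T-mDC samples 2 and 3 averaged into 1 and with the erythroid covariate. It was 2 with voom on whole reads, with or without the filter, 4 with array weights and 0 to 2 with a library left out: 0 when N-mDC sample 1 or 3, either of T-DC samples 2 and 3 or any T-mDC sample was dropped, and 2 when T-DC sample 1 was. For T-mDCs against N-mDCs (0 members) it was 2 in a fit of only the groups compared, 3 with array weights and 0 to 1 with a library left out. Array weights called 8485 genes for T-DCs against N-mDCs, where the fit without weights called 2096. Except where a filter or fewer samples made the change, the cause was not tested.

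With the replicate block the count for T-DCs against N-mDCs was 0 (Adora2a, adjusted p = 0.0661), and the block changed no other call of a member. Correlations of deviations of same-numbered samples ran from -0.475 to 0.269. N-mDCs came from healthy mice, and between T-DCs and T-mDCs the correlations were -0.071, -0.118 and 0.022. At 3 samples per group these cannot tell whether T-DC and T-mDC samples share mice, which the labels do not say.

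Signs turned only in differences near 0. Entpd1 in T-DCs against T-mDCs was 0.88 with the erythroid covariate and -0.45 to 0.37 with a library left out, positive without T-DC sample 2 (0.03) or 3 (0.37) or T-mDC sample 1 (0.09). Adora2b in T-mDCs against N-mDCs was 0.12 with TPM, 0.0058 with quantile normalization, 0.093 with array weights, and -0.35 to 0.14 with a library left out, with 0.14, 0.024 and 0.0050 after removal of N-mDC sample 2, N-mDC sample 3 or T-mDC sample 3. TPM moved the median log2 fold change of all genes from 0.07 to -0.23 for T-DCs against T-mDCs and from 0.03 to 0.21 for T-mDCs against N-mDCs. For the 6 members below the filter, all 144 differences under other scalings or without a library moved by less than 1 SD, pooled over the groups compared. Dropping 1 of 3 samples cannot move a difference by that much, so those cases were fixed in advance and do not show stability. Depth limits Nos2, Il4i1, Ido2 and Arg1, whose groups hold 0 to 76 reads.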
